A study of Mus musculus with 12 samples.

Results

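The genes described here are the C-type lectin receptors and the killer cell lectin-like (Klr) receptors, taken as every gene whose symbol begins with Clec and a digit or with Klr and a letter from a to k. A gene was used where at least 1 probe set of the array carried its symbol alone, and its brightest probe set, by the mean of the 12 arrays, stood for it. The rule found 56 of 19938 named genes, 33 Clec and 23 Klr. The values are log2 signals from 12 single-colour arrays of mouse bone marrow derived mast cells, cultured with stem cell factor and interleukin 3 from the marrow of female mice 4 to 6 weeks old. There are 4 groups of 3 arrays: wild type (C57BL/6) at 2 weeks of culture, ACKR2-/- (also called D6-/-, on C57BL/6) at 2 weeks, and each of these genotypes at 10 weeks. ACKR2 is an atypical chemokine receptor that takes up inflammatory CC chemokines. All cultures had the same cytokines, and the labels give no other agent, no deletion map for the allele, and no animal or culture for an array. P-values therefore measure the spread between these arrays only. For some experiments 2-week cells were purified on a column for CD117, the Kit receptor, and the labels do not say which.

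C-type lectins share a fold that in some members binds sugars with the help of calcium and in others has turned to binding proteins. In mouse, most genes of the set lie on chromosome 6, which holds the natural killer gene complex and the Dectin-1 and Dectin-2 gene clusters. Klr proteins are receptors of natural killer (NK) and T cells that read MHC class I molecules, MHC-like stress ligands, cadherins or the Clr proteins of neighbouring cells. The Clec receptors of the Dectin-1 and Dectin-2 clusters sit on dendritic cells, monocytes, macrophages and neutrophils and bind fungal and bacterial sugars, glycolipids or material of dead cells. Some signal through the adaptors Fcer1g, Tyrobp and Hcst, others carry inhibitory motifs of their own. Mast cells are known for few of them, among them Klrg1, first described on a rat mast cell line.

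Of the 56 genes, 54 were protein coding in a RefSeq gene table of assembly GRCm38.p6 and 40 of these stood in 7 runs with no other protein-coding gene between them. The longest run had 12 genes, from Klre1 to Klra6, and held CD94, NKG2 and Ly49 genes. The next had the 9 genes of the Dectin-2 cluster from Clec4a1 to Clec4e, and the next 7 genes from Clec2m to Clec7a. Neighbours did not share 1 pattern over the arrays. In the Dectin-2 run, Clec4n was highest on the 2-week arrays labelled ACKR2-/- and on wild type 2-week array 3, where Clec4e, at the end of the run, was at its lowest. Because such genes were seen to move together in smaller sets, the 250 bases before the RefSeq start are printed for 6 of them, from the RefSeq promoter table of GRCm38.p6. Clec4a1 (chr6:122921598-122921847, plus strand) and Clec12a (chr6:129349994-129350243, plus strand) stand for genes high at 2 weeks and, on some arrays, at 10 weeks. Clec4e (chr6:123289872-123290121, minus strand) and Clec5a (chr6:40585806-40586055, minus strand) stand for genes low on the 2-week ACKR2-/- arrays. Klrc1 (chr6:129678974-129679223, minus strand) and Klra6 (chr6:130026955-130027204, minus strand) stand for genes high only on 2-week arrays. Capitals mark matches, on either strand, to GAGGAA (the core of PU.1-type sites), TTGCNNAA (C/EBP-type) and TGTGGT (Runx-type). Each sequence is given 5′ to 3′ on the strand of its gene.
Clec4a1: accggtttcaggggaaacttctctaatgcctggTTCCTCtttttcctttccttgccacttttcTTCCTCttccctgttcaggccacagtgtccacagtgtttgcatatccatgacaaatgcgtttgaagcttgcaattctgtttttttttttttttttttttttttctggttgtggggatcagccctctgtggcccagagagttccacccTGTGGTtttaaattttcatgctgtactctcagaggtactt
Clec12a: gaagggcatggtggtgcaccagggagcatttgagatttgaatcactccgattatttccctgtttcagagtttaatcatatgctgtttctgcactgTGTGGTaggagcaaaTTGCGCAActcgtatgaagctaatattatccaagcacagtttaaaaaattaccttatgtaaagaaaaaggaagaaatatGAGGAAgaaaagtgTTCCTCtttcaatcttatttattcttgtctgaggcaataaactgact
Clec4e: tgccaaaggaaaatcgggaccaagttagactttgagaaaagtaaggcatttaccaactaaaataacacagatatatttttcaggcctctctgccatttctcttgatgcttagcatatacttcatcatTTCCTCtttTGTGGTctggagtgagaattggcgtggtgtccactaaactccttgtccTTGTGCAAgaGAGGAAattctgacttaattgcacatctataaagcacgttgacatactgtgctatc
Clec5a: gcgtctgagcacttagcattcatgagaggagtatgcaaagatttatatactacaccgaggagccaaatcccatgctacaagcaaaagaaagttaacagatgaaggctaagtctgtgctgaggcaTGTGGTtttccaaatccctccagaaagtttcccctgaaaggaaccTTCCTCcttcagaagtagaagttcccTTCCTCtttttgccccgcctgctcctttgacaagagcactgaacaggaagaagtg
Klrc1: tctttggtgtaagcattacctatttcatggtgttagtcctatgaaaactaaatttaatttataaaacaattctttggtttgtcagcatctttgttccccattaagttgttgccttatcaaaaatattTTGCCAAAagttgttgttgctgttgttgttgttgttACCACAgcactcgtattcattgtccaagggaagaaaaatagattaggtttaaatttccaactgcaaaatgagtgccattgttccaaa
Klra6: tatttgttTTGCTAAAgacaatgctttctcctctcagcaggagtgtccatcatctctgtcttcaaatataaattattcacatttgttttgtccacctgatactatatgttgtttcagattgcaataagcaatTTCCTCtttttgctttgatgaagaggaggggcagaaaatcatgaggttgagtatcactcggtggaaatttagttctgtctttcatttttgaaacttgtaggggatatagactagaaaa

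GAGGAA occurred in 30 of the 52 windows found for 45 of the genes, 57.7%, against 23.3% of 32851 windows of the same length in the whole table. TTGCNNAA occurred in 13 of the 52 windows, against 9.56% of all, and TGTGGT in 14 (26.9%, against 14.0%). AGGTGT, a T-box-type core, was in 3 windows (5.77%, against 11.8%) and a motif of the interferon-response type in 2 (3.85%, against 2.98%). GAGGAA was in windows of 13 of 19 Klr genes and 14 of 26 Clec genes. Some genes have 2 windows, and some Ly49 promoters can be near copies of each other, so these windows are not independent. A match is a run of letters and shows no binding.

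The arrays have to be described before the genes. The 17 measured mast cell markers had averages of 11.49 to 12.07 on 8 arrays, the first and second of wild type at 2 weeks and all of 10 weeks. On the other 4, which were wild type 2-week array 3 and every ACKR2-/- array of 2 weeks, the averages were 6.69 to 6.81. T cell markers (13 genes) averaged 12.33, 12.25 and 12.25 on wild type 2-week array 3 and ACKR2-/- 2-week arrays 1 and 2, 8.10 on ACKR2-/- 2-week array 3, and between 7.45 and 7.89 elsewhere. B cell markers (13 genes) averaged 11.74 on ACKR2-/- 2-week array 3, 9.39, 9.61 and 9.60 on the other 3 arrays of this kind, and at most 7.19 elsewhere. Defining mast cell markers were thus low on 4 arrays that the labels call cultured mast cells. Xist read 5.77 to 6.23 on these 4 arrays and 13.00 to 13.37 on the other 8, although the labels give female mice throughout, and the Y-linked gene Kdm5d read 10.06 to 10.51 on the 4 and 6.04 to 6.42 on the 8. Ackr2 itself read 8.19, 8.29 and 8.38 on the wild type 2-week arrays, 8.39, 7.79 and 9.43 on the ACKR2-/- 2-week arrays, 7.88, 8.26 and 8.35 at 10 weeks in wild type and 8.35, 8.16 and 8.25 in ACKR2-/-, so it does not check the genotype, and whether its probe set lies in the deleted part is not given in the sources used here. Groups are therefore named as labelled. Where a result rests on the 4 arrays, genotype, culture time and these other differences cannot be told apart, and fewer cells of a type cannot be told from less RNA per cell.

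The set varied widely. The highest and the lowest array differed by at least 2 on the log2 scale for 28 of the 56 genes, 50.0%, against 11.5% of all named genes. They differed by at least 4 for 8 of the 56, 14.3%, against 2.42% of all named genes. The median range was 2.01, against 0.75 for all genes. The set as a whole was not strongly expressed: of the 23 Klr genes only Klrb1f had a mean above 7.54, the 40th percentile of the means of all genes, while 13 of the 33 Clec genes did. RMA values carry no detection call, so a value near 5, below the 10th percentile of all values (5.72), is read only as low.

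**Figure D1:**
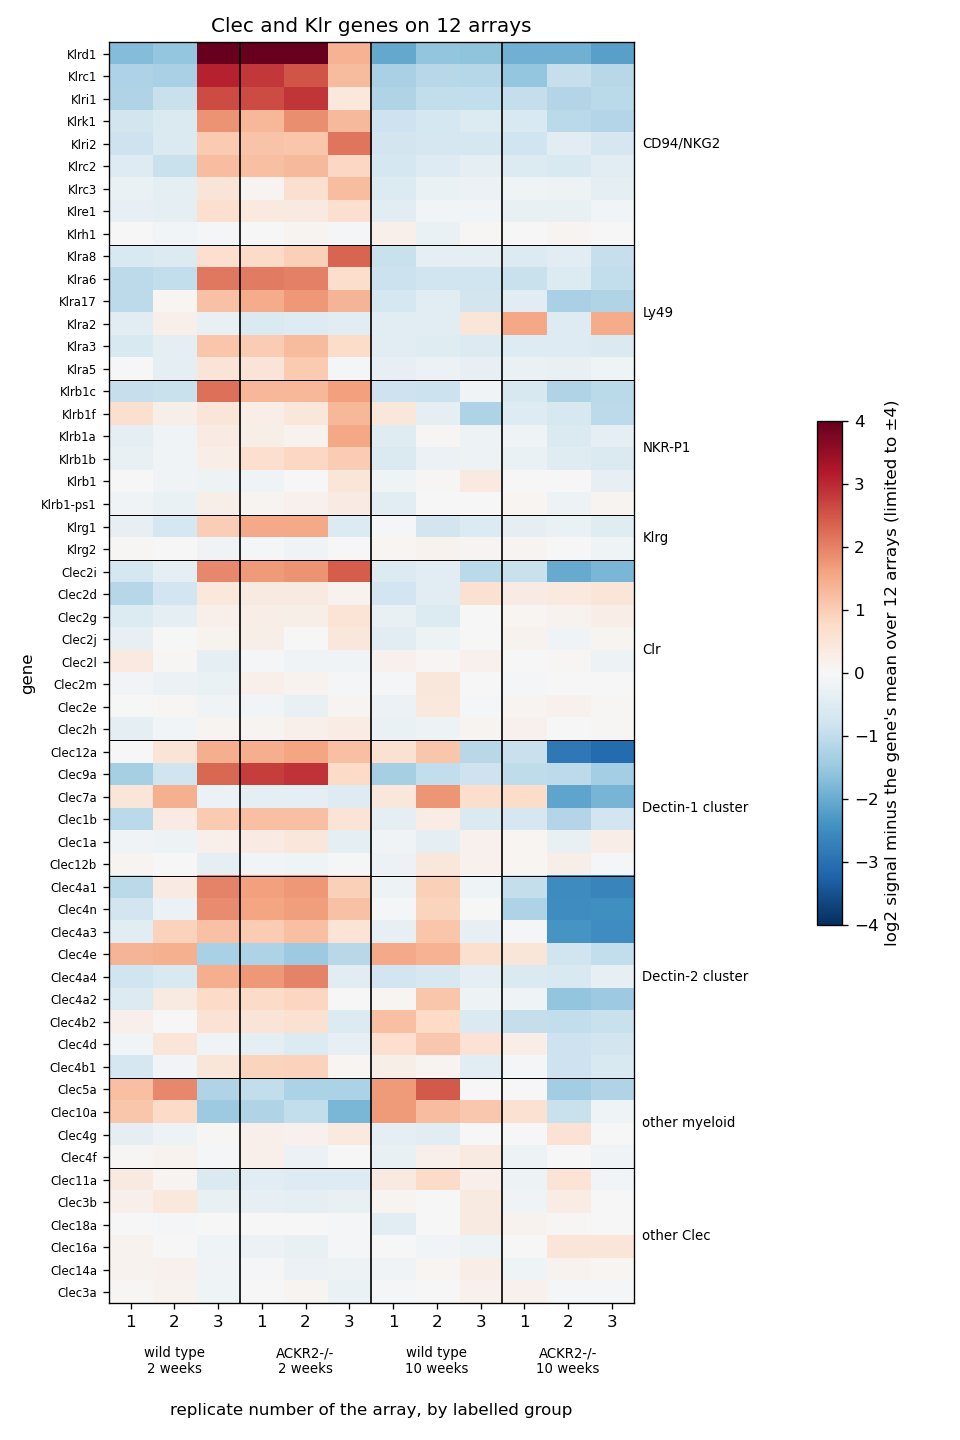
Log2 signal of each of the 56 Clec and Klr genes (rows, grouped by family) on each of the 12 arrays (columns, numbered by replicate within the labelled groups), as the difference from the gene's own mean over 12 arrays. Most Klr genes are high on wild type 2-week array 3 and the 3 ACKR2-/- 2-week arrays, and several Dectin-1 and Dectin-2 cluster genes, Clec12a and Clec4n among them, are lowest on ACKR2-/- 10-week arrays 2 and 3.

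With time in culture, from 2 to 10 weeks in ACKR2-/- arrays, 22 of the 56 genes fell and 1 rose at a limma adjusted p under 0.05. Over all genes of this contrast 16.8% were called, 6.33% lower and 10.5% higher. The 22 comprised 13 of 23 Klr genes and 9 of 33 Clec genes, and the 1 that rose was Clec16a, a protein of endosome traffic and mitophagy that is no surface receptor. The median log2 difference was -1.43 for the Klr genes, -0.11 for the Clec genes and 0.06 for all genes. Arrays of the times did not overlap for 28 genes that were lower at 10 weeks, against 17.7% of named genes, and for 7 that were higher, against 26.7%. Without 10-week array 2 or without 10-week array 3 limma called 0 of 19938 genes in this contrast, without ACKR2-/- 2-week array 1 it called 10 of the 56 (7.59% of all genes), without 2-week array 2 it called 8 (6.98%), and without 10-week array 1 it called 15 (13.0%). The same 2-week arrays had the lymphocyte markers and low mast cell markers given above, and differed from the 10-week arrays in Xist and Kdm5d as well. A difference of culture time therefore cannot be told apart from a difference of the material on the arrays, here and wherever a fall or rise with time in ACKR2-/- is given.

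**Figure D2:**
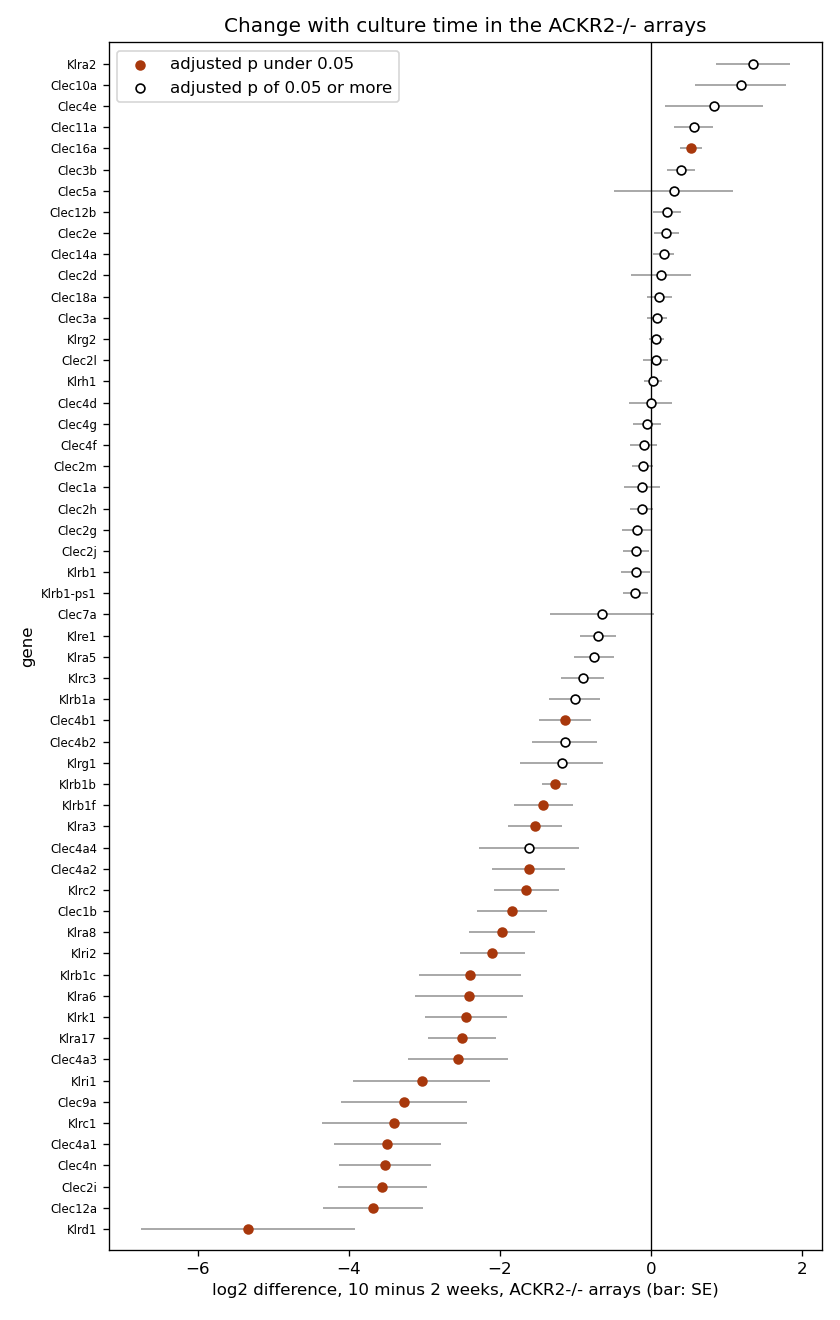
Log2 difference of each of the 56 genes between the 10-week and the 2-week arrays labelled ACKR2-/- (horizontal axis, point with limma standard error), filled where the adjusted p was under 0.05. The filled points are 22 genes that fell, from Clec4b1 at -1.14 to Klrd1 at -5.34, and Clec16a, which rose by 0.53.

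Klrd1 had the widest range of the 56 genes, 6.67, and its NKG2 partners ranged less. Klrd1 encodes CD94, the shared chain of the receptors that read the MHC class I molecule Qa-1. On arrays 1, 2 and 3 of each group in turn it read 5.46, 5.63 and 11.70 in wild type at 2 weeks, 11.47, 11.52 and 8.58 in ACKR2-/- at 2 weeks, 5.15, 5.61 and 5.59 in wild type at 10 weeks and 5.27, 5.26 and 5.03 in ACKR2-/- at 10 weeks. It was thus high on 3 arrays, intermediate on ACKR2-/- 2-week array 3 and low on the rest, with an overlap between the genotypes at 2 weeks and none between the times in ACKR2-/-. Klrc1, the inhibitory partner NKG2A, read 4.95, 4.89 and 9.28 in wild type and 9.02, 8.72 and 7.47 in ACKR2-/- at 2 weeks, and between 4.64 and 5.28 on the 6 arrays of 10 weeks. Klrc2, the activating partner NKG2C, read 5.57, 5.19 and 7.32 against 7.30, 7.39 and 6.91 at 2 weeks, and at most 5.71 at 10 weeks. All 3 genes were high on the same 4 arrays, with wild type 2-week array 3 beside the ACKR2-/- arrays. With time in ACKR2-/-, all 3 fell, with log2 differences of -5.34 ± 1.41 (SE) for Klrd1, -3.40 ± 0.96 for Klrc1 and -1.65 ± 0.43 for Klrc2 (limma adjusted p = 0.0288, 0.0358 and 0.0265).

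Klri1 and Klri2, which pair with Klre1 into receptors of NK cells, differed from each other. Klri1 read 5.63, 5.94 and 9.45 in wild type and 9.45, 9.71 and 7.26 in ACKR2-/- at 2 weeks, and Klri2 read 4.37, 4.61 and 6.24 against 6.31, 6.28 and 7.33. At 10 weeks Klri1 lay between 5.65 and 5.88 and Klri2 between 4.40 and 4.72. So Klri1 was lowest, and Klri2 highest, on array 3 among the ACKR2-/- 2-week arrays, the array with the highest B cell and the lower T cell markers. Both fell with time in ACKR2-/-, with differences of -3.04 ± 0.90 and -2.10 ± 0.43 (limma adjusted p = 0.0436 and 0.0142). Klrk1 encodes NKG2D, the activating receptor for stress-induced MHC-like ligands. It read 5.54, 5.71 and 8.07 in wild type and 7.62, 8.13 and 7.56 in ACKR2-/- at 2 weeks, and between 5.10 and 5.73 at 10 weeks, and fell in ACKR2-/- (-2.45 ± 0.54, limma adjusted p = 0.0156). Klrk1 thus differed little between the 2-week arrays with T cell and with B cell markers. Klrc3, Klre1 and Klrh1 did not pass, with differences of -0.91, -0.71 and 0.02, and Klrh1 stayed between 3.84 and 4.30 on all arrays.

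**Figure D3:**
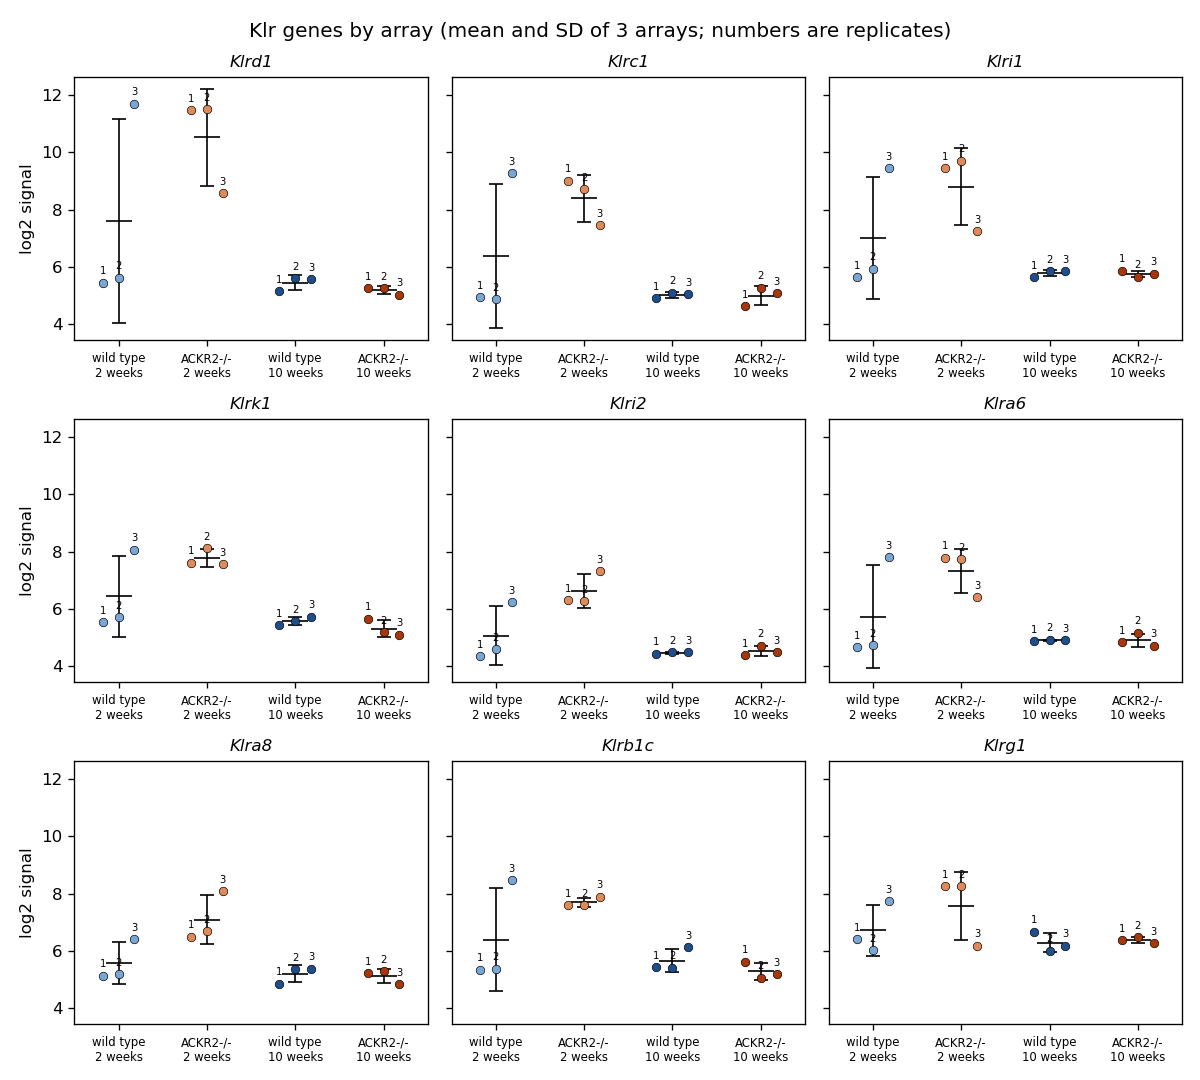
Log2 signal (vertical axis) of 9 Klr genes on each array, by labelled group, with the mean and SD of 3 arrays and the replicate number beside each point. Klrd1 reads 11.70, 11.47 and 11.52 on wild type 2-week array 3 and ACKR2-/- 2-week arrays 1 and 2, and between 5.03 and 5.63 on 8 arrays.

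The Ly49 receptors, encoded by the Klra genes, bind classical MHC class I or viral decoys of it. Of the 6 genes measured, 4 fell with time in the ACKR2-/- arrays. Klra6 (Ly49F) read 4.66, 4.73 and 7.82 in wild type and 7.79, 7.75 and 6.43 in ACKR2-/- at 2 weeks, while Klra8 (Ly49H, the activating receptor for a cytomegalovirus protein) read 5.14, 5.19 and 6.41 against 6.51, 6.69 and 8.09. Within the ACKR2-/- 2-week arrays, array 3 was therefore lowest for Klra6 and highest for Klra8. At 10 weeks Klra6 lay between 4.73 and 5.17 and Klra8 between 4.84 and 5.39. Klra17 (Ly49Q), a receptor of plasmacytoid dendritic cells and other myeloid cells, read 5.07, 6.18 and 7.29 in wild type and 7.59, 7.84 and 7.46 in ACKR2-/- at 2 weeks, and 4.81 to 5.69 at 10 weeks. Its ACKR2-/- arrays did not overlap with wild type at 2 weeks, although array 3 of wild type came close. The log2 differences with time in ACKR2-/- were -2.41 ± 0.71 for Klra6, -1.97 ± 0.43 for Klra8, -2.50 ± 0.45 for Klra17 and -1.54 ± 0.36 for Klra3 (Ly49C), with limma adjusted p between 0.0137 and 0.0428.

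Klra2 (Ly49B), a Ly49 receptor known from myeloid cells, followed none of the others. It read 6.93, 7.62 and 7.09 in wild type and 6.81, 6.87 and 6.99 in ACKR2-/- at 2 weeks, then 6.94, 6.96 and 7.87 in wild type and 8.94, 6.88 and 8.88 in ACKR2-/- at 10 weeks. ACKR2-/- 10-week arrays 1 and 3 were thus highest and array 2, which over all genes was nearest to array 3 (r = 0.994 across genes), was low. Neither its difference between the genotypes at 10 weeks (0.98 ± 0.49, limma adjusted p = 0.672) nor that with time in ACKR2-/- (1.34 ± 0.49, 0.0871) passed. Many Ly49 genes are close to each other in sequence, which was not measured here. Another 4 probe sets carry between 3 and 7 symbols each, and 9 Klra genes are found on these alone. Signal can therefore be shared and the Ly49 values are uncertain. Klra2 and Klra17 are not among the symbols of these 4 probe sets.

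The NKR-P1 receptors, encoded by the Klrb1 genes, recognise Clr proteins, which the Clec2 genes encode, so receptor and ligand lie side by side in the genome. Klrb1c, the NK1.1 antigen that marks NK cells in C57BL/6 mice, read 5.35, 5.38 and 8.46 in wild type and 7.60, 7.60 and 7.89 in ACKR2-/- at 2 weeks, and 5.44, 5.42 and 6.13 against 5.63, 5.07 and 5.20 at 10 weeks. Its highest value was on wild type 2-week array 3. Klrb1b, the inhibitory receptor of Clec2d, moved less but with little spread, from 6.14, 6.29 and 6.71 in wild type to 7.11, 7.27 and 7.44 in ACKR2-/- at 2 weeks, and lay between 5.86 and 6.22 at 10 weeks. It differed by 0.89 ± 0.17 between the genotypes at 2 weeks without overlap and did not pass (limma adjusted p = 0.225). It is given although it was chosen after its values were seen. Klrb1f, the receptor of Clec2i, had the highest mean of the Klr genes. It read 8.68, 8.29 and 8.52 in wild type and 8.31, 8.49 and 9.39 in ACKR2-/- at 2 weeks, 8.49, 7.70 and 6.80 in wild type and 7.53, 7.39 and 6.99 in ACKR2-/- at 10 weeks. So Klrb1f, unlike Klrb1c, was as high on wild type 2-week arrays 1 and 2, with high mast cell markers, as on ACKR2-/- arrays 1 and 2 of that time. Klrb1c (-2.40 ± 0.67), Klrb1b (-1.28 ± 0.17) and Klrb1f (-1.43 ± 0.39) fell with time in ACKR2-/- (limma adjusted p = 0.0350, 0.0137 and 0.0335), while Klrb1, Klrb1a and Klrb1-ps1 did not pass.

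The ligands of these receptors were expressed more evenly. Clec2d (Clr-b), which most blood cells carry and which holds off NK cells through Klrb1b, had the highest mean level of all 56 genes, above 97.8% of named genes. It read 10.84, 11.22 and 12.42 in wild type and 12.33, 12.32 and 12.11 in ACKR2-/- at 2 weeks, and 11.23, 11.56 and 12.58 against 12.31, 12.37 and 12.46 at 10 weeks. Wild type arrays 1 and 2 were lowest at both times. Clec2i (Clr-g) varied more, at 8.25, 8.54 and 10.85 against 10.64, 10.73 and 11.37 at 2 weeks, and 8.39, 8.52 and 7.87 against 8.05, 6.92 and 7.11 at 10 weeks. It was highest where lymphocyte markers were high and lowest on ACKR2-/- 10-week arrays 2 and 3. It fell with time in ACKR2-/- (-3.56 ± 0.59, limma adjusted p = 0.0137). None of the other 7 Clr genes passed in any contrast with all arrays, and apart from Clec2d and Clec2g their ranges over 12 arrays were below 1. Without wild type 2-week array 3, limma called Clec2d (1.22), Clec2g (0.81) and Clec2h (0.45) higher in ACKR2-/- at 2 weeks. In that fit 10.2% of all genes were called higher.

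Klrg1, an inhibitory receptor for cadherins on mature NK and effector T cells, was first known as a mast cell antigen in rat. It read 6.42, 6.03 and 7.73 in wild type and 8.25, 8.25 and 6.19 in ACKR2-/- at 2 weeks, 6.67, 6.02 and 6.19 in wild type and 6.39, 6.49 and 6.27 in ACKR2-/- at 10 weeks. It was thus highest on the 3 arrays with high T cell markers, and the 8 arrays with high mast cell markers were between 6.02 and 6.67. Its difference with time in ACKR2-/- (-1.19 ± 0.55) did not pass. Klrg2 was the steadiest of the 56 genes, between 6.97 and 7.26.

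In the Dectin-1 cluster, neighbouring genes followed different marker lists. Clec9a, the receptor for exposed actin of dead cells on cross-presenting dendritic cells, read 5.90, 6.41 and 9.51 in wild type and 9.98, 10.12 and 7.98 in ACKR2-/- at 2 weeks, and lay between 5.87 and 6.38 at 10 weeks. Xcr1, a chemokine receptor of the same dendritic cells, read 8.68 on wild type 2-week array 3, 8.51, 8.43 and 5.93 on the ACKR2-/- 2-week arrays and at most 6.35 on the others, so array 3 of ACKR2-/- differed between the 2 genes. Clec12a, an inhibitory receptor of myeloid cells, read 8.68, 9.15 and 10.10 in wild type and 10.10, 10.23 and 9.86 in ACKR2-/- at 2 weeks. At 10 weeks it read 9.26, 9.76 and 7.53 in wild type and 7.78, 5.78 and 5.58 in ACKR2-/-. Clec12a was therefore high in all 2-week arrays whatever their mast cell markers, and lowest on ACKR2-/- 10-week arrays 2 and 3. Clec7a (Dectin-1), the receptor for fungal beta-glucan, read 8.69, 9.63 and 7.99 against 7.84, 7.82 and 7.71 at 2 weeks, and 8.67, 9.98 and 8.91 against 8.95, 6.11 and 6.35 at 10 weeks. Unlike Clec12a it was higher on wild type arrays 1 and 2 than on the ACKR2-/- arrays at 2 weeks. Clec1b (CLEC-2), the podoplanin receptor of platelets, read 6.02, 7.44 and 8.16 against 8.31, 8.30 and 7.65 at 2 weeks, and 5.94 to 7.41 at 10 weeks. With time in ACKR2-/- Clec12a (-3.68 ± 0.67), Clec9a (-3.27 ± 0.83) and Clec1b (-1.85 ± 0.46) fell (limma adjusted p = 0.0137, 0.0249 and 0.0237). Clec7a (-0.65 ± 0.69), Clec1a and Clec12b did not pass.

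The Dectin-2 cluster held 9 genes, of which 5 fell with time in ACKR2-/-. Clec4n (Dectin-2), the receptor for fungal mannan, read 7.93, 8.45 and 10.58 in wild type and 10.28, 10.35 and 9.85 in ACKR2-/- at 2 weeks, then 8.65, 9.58 and 8.67 in wild type and 7.46, 6.21 and 6.25 in ACKR2-/- at 10 weeks. The next gene type in the run, the DCIR family, has inhibitory members of dendritic cells and monocytes. Clec4a1 read 7.49, 8.90 and 10.53 against 10.20, 10.31 and 9.50 at 2 weeks and 8.35, 9.50 and 8.38 against 7.60, 6.04 and 5.90 at 10 weeks. Clec4a3 read 8.01, 9.33 and 9.59 against 9.45, 9.61 and 8.95 at 2 weeks and 8.09, 9.54 and 8.09 against 8.35, 6.07 and 5.92 at 10 weeks. All 3 genes were lowest on ACKR2-/- 10-week arrays 2 and 3. The average of the monocyte and macrophage markers (16 genes) was also lowest there, at 7.65 and 7.80, and between 8.92 and 10.56 on the other 10 arrays. Not every marker of the list did so: on these 2 arrays Cx3cr1 read 11.24 and 11.09, among its highest values, and Ccr2 6.11 and 11.31. Clec4a2 (DCIR) read 6.36, 7.25 and 7.65 against 7.66, 7.76 and 6.91 at 2 weeks and 6.98, 8.02 and 6.71 against 6.73, 5.31 and 5.44 at 10 weeks. Clec4a4 (DCIR2), of a dendritic cell subset, departed from its relatives. It read 6.96, 7.24 and 7.50 on wild type 2-week array 3 and ACKR2-/- 2-week arrays 1 and 2, and between 4.70 and 5.17 on the other 9 arrays. The log2 differences with time in ACKR2-/- were -3.52 ± 0.61 for Clec4n, -3.49 ± 0.70 for Clec4a1, -2.55 ± 0.66 for Clec4a3, -1.62 ± 0.48 for Clec4a2 and -1.14 ± 0.34 for Clec4b1, with limma adjusted p between 0.0137 and 0.0456.

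Clec4e (Mincle), the receptor for mycobacterial glycolipid, and its partner Clec4d lie next to each other at the end of the run and did not fall with time in ACKR2-/-. Clec4e read 8.71, 8.75 and 6.06 in wild type and 6.13, 5.91 and 6.23 in ACKR2-/- at 2 weeks, then 8.86, 8.75 and 7.99 in wild type and 7.82, 6.56 and 6.36 in ACKR2-/- at 10 weeks. It was thus lowest on the 4 arrays with low mast cell markers, and nearly as low on ACKR2-/- 10-week arrays 2 and 3. Clec4d read 6.73, 7.34 and 6.72 against 6.48, 6.30 and 6.54 at 2 weeks and 7.53, 7.92 and 7.42 against 7.13, 6.02 and 6.14 at 10 weeks. Their differences with time in ACKR2-/- were 0.83 ± 0.65 and -0.01 ± 0.28.

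Clec5a and Clec10a, lectins of monocytes, neutrophils and macrophages outside the clusters, had a similar pattern to Clec4e. Clec5a, which signals through Tyrobp and Hcst, read 8.02, 8.75 and 5.63 in wild type and 5.86, 5.56 and 5.58 in ACKR2-/- at 2 weeks, and 8.55, 9.29 and 6.85 against 6.83, 5.44 and 5.62 at 10 weeks. Clec10a, a galactose-binding lectin of macrophages and dendritic cells, read 9.62, 9.26 and 7.05 against 7.31, 7.52 and 6.68 at 2 weeks and 10.22, 9.73 and 9.59 against 9.11, 7.62 and 8.33 at 10 weeks. Both were high on wild type 2-week arrays 1 and 2 and on wild type 10-week arrays 1 and 2. Neutrophil markers (16 genes) averaged 8.75, 9.61 and 7.31 in wild type and 7.49, 7.53 and 7.09 in ACKR2-/- at 2 weeks, and 9.25, 10.11 and 8.38 against 7.99, 6.83 and 6.68 at 10 weeks. Their part in the levels of Clec5a was not tested. Clec4f, a Kupffer cell receptor, and Clec4g, of liver endothelium, ranged over 0.66 and 1.04.

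**Figure D4:**
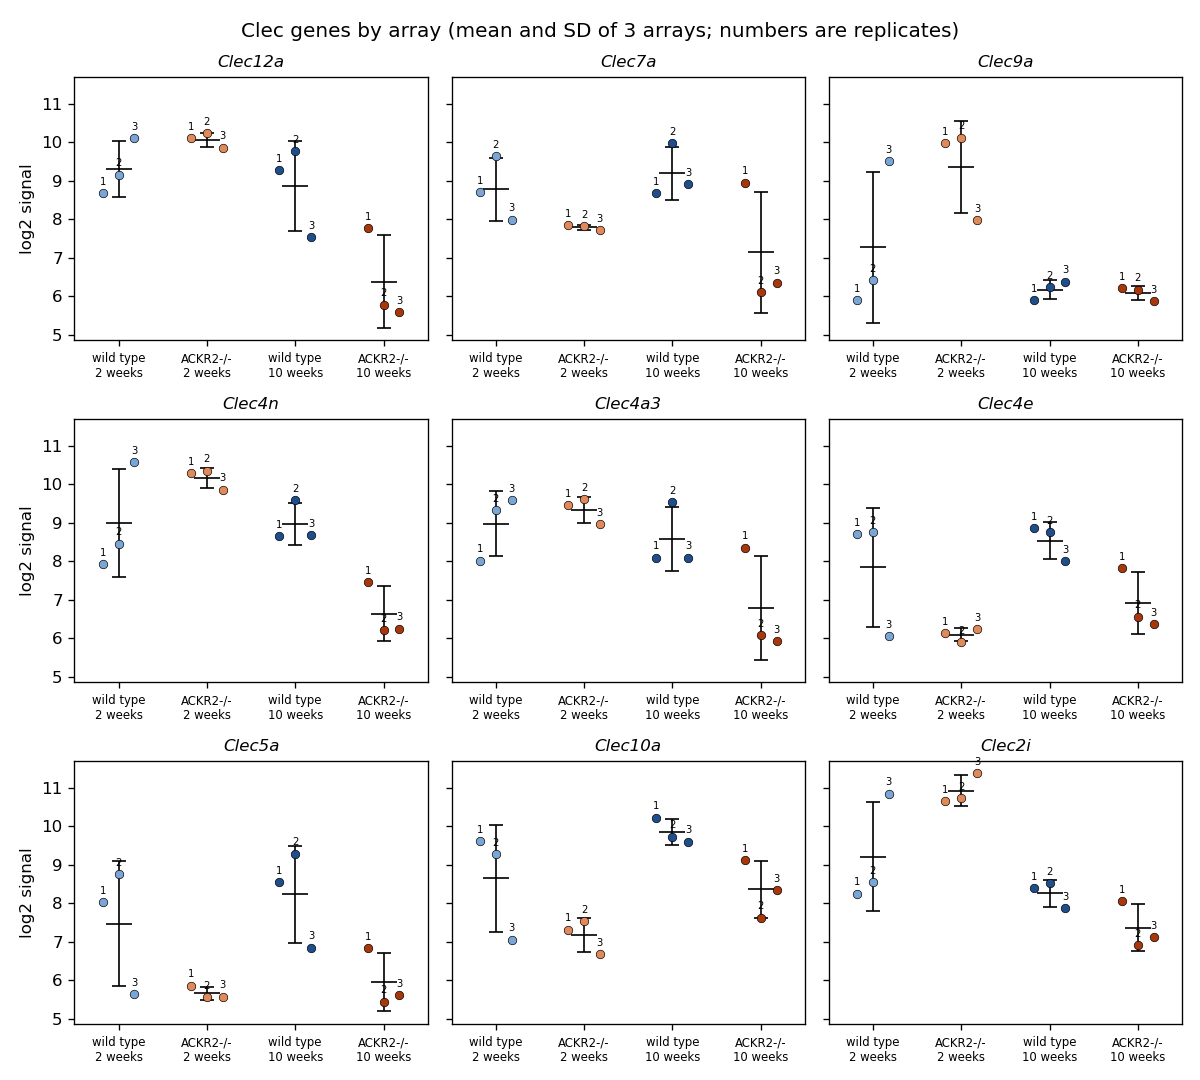
Log2 signal (vertical axis) of 9 Clec genes on each array, by labelled group, with the mean and SD of 3 arrays and the replicate number beside each point. Clec4e, Clec5a and Clec10a are low on wild type 2-week array 3 and the ACKR2-/- 2-week arrays, where Clec12a, Clec9a, Clec4n and Clec2i are high.

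At 10 weeks, where mast cell markers averaged high on all 6 arrays, most myeloid lectin receptors had lower averages in ACKR2-/- than in wild type, and no gene passed. The arrays were not alike in every marker. Mcpt4 read 12.66, 11.21 and 9.05 in wild type and 8.66, 7.29 and 7.30 in ACKR2-/-. The basophil marker Mcpt8 read 12.94, 13.24 and 12.51 against 11.81, 7.41 and 7.02. Of the 17 mast cell markers, 10 had a difference above 0 and 7 below. Of the 9 Dectin-2 cluster genes 8 had a difference below 0 (median -1.43 on the log2 scale), and 5 of the 6 Dectin-1 cluster genes were below 0, with a median of -0.36, against a median of 0.01 for all genes. The largest differences belonged to Clec12a (-2.47 ± 0.67), Clec4n (-2.32 ± 0.61), Clec5a (-2.26 ± 0.79), Clec4a1 (-2.23 ± 0.70) and Clec7a (-2.05 ± 0.69). For these 5 the adjusted p from limma was 0.480 to 0.543. Smaller ones were those of Clec4a3 (-1.79 ± 0.66), Clec4e (-1.62 ± 0.65), Clec10a (-1.49 ± 0.60), Clec4b2 (-1.43 ± 0.43), Clec4a2 (-1.41 ± 0.48) and Clec4d (-1.20 ± 0.28). The Klr genes had a median of -0.03, with 8 of 23 above 0. Limma called 0 of 19938 genes here, with 1566 at an unadjusted p under 0.05, of which 13 were Clec genes of the set and 0 were Klr genes.

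The arrays of a group differed among themselves in these receptors. Over all genes, ACKR2-/- 10-week array 1 was nearest to wild type 2-week array 2 (r = 0.991), with 0.974 and 0.975 within its own group. All 3 ACKR2-/- arrays lay below all 3 wild type arrays for 9 of the 56 genes, against 5.98% of all named genes: Clec10a, Clec1b, Clec2l, Clec4a1, Clec4b2, Clec4d, Clec4e, Clec4n and Clec5a. For Clec12a, Clec7a, Clec4a3 and Clec4a2 the groups overlapped through ACKR2-/- array 1, which lay above the lowest wild type array. All 3 arrays lay above wild type for 2 genes, Clec16a and Clec2g, against 8.61% of named genes. Without ACKR2-/- array 1 limma called 2 of the 56, Clec7a (-2.96 ± 0.47) and Clec4d (-1.55 ± 0.21), both lower, against 0.481% of named genes called lower. That array had the highest value of its group for both genes. Markers of monocytes and macrophages averaged 9.75 on it and 7.65 and 7.80 on arrays 2 and 3, against 9.13, 10.56 and 9.87 on the wild type arrays. Clec7a had the same order of arrays within ACKR2-/- as these markers, and the part of the markers in the differences was not tested.

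**Figure D5:**
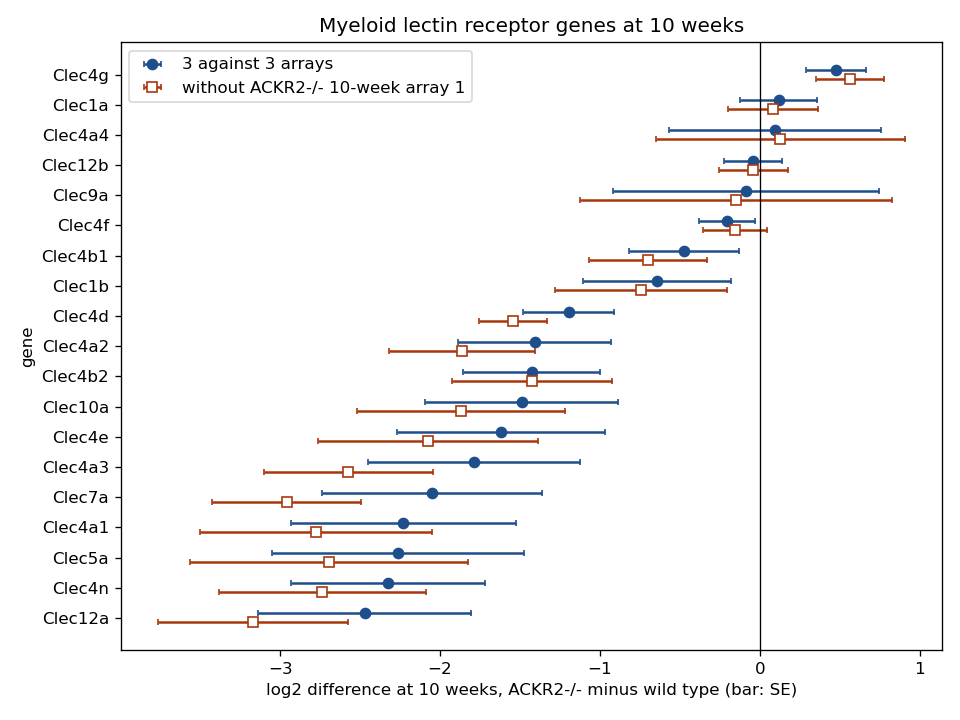
Log2 difference at 10 weeks between the arrays labelled ACKR2-/- and wild type (horizontal axis, limma standard error as bar) for the 19 genes of the Dectin-1 and Dectin-2 clusters and other myeloid lectin receptors, with all arrays (circles) and without ACKR2-/- array 1 (squares). Clec12a moves from -2.47 to -3.17 and Clec4b2 stays at -1.43.

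At 2 weeks no gene of the set passed between the genotypes, and for many of them wild type array 3 read near the ACKR2-/- arrays. On average, 21 of 23 Klr genes were above 0 in ACKR2-/- minus wild type, with a median of 0.89, and 17 of 33 Clec genes, with a median of 0.18. The largest differences were those of Klrd1 (2.93 ± 1.41), Clec9a (2.09 ± 0.83), Klrc1 (2.03 ± 0.96), Klri1 (1.80 ± 0.90) and Clec2i (1.71 ± 0.59), and, in the other direction, Clec5a (-1.80 ± 0.79), Clec4e (-1.75 ± 0.65) and Clec10a (-1.47 ± 0.60). Limma called 0 of the 56 and 0 of 19938 genes, with 17 of the 56 and 3480 of all genes at an unadjusted p under 0.05. Arrays did not overlap for 8 genes that were higher, against 4.97% of named genes, among them Klrb1b, Klri2, Klra8 and Klra17, and for 2 that were lower, Clec4d and Clec7a, against 8.60%. Without wild type array 3, limma called 29 of the 56, 24 higher and 5 lower, against 23.8% of all genes (10.2% higher and 13.5% lower). Klrd1 then differed by 4.98 ± 0.70 and Clec4e by -2.64 ± 0.39. That fit sets 2 arrays with high mast cell markers against 3 with low ones.

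In wild type between 2 and 10 weeks limma called 0 of the 56 and 0 of all genes, with 2 of the 56 and 1326 of all genes at an unadjusted p under 0.05. Arrays did not overlap for 3 genes that were higher at 10 weeks (Clec2m, Clec4d and Klrg2), against 5.29% of named genes, and for 0 that were lower, against 3.45%. Klrd1 differed by -2.15 ± 1.41 and Klrc1 by -1.35 ± 0.96, and both rested on 2-week array 3. Without it the difference of Klrc1 was 0.10 and that of Klri1, -1.22 with all arrays, was 0.0037. The interaction of genotype and week called 0 of the 56 and 0 of all genes, with 15 of the 56 and 2271 of all genes at an unadjusted p under 0.05. Without wild type 2-week array 3 it called 21 of the 56, against 15.7% of all genes, with 1 of the 56 above 0 (9.78% of all genes) and 20 below (5.96%). These contrasts share arrays with those above.

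Over the 12 arrays, each of the 28 genes with a range of at least 2 was set beside the marker list whose average was nearest in shape, by the mean absolute difference of values centred and divided by their SD. This likeness was chosen after the values were seen and is a description. T cell markers were nearest for 7 genes, Clec4a4, Clec9a, Klra6, Klrc1, Klrd1, Klrg1 and Klri1. Plasmacytoid dendritic cell markers were nearest for 5, Clec2i, Klra17, Klrb1c, Klrc2 and Klrk1, and B cell markers for 4, Klra8, Klrb1a, Klrb1f and Klri2. Conventional dendritic cell markers were nearest for Clec12a, Clec1b, Clec4a1 and Clec4n, monocyte and macrophage markers for Clec4a2 and Clec4a3, and neutrophil markers for Clec5a and Clec7a. Single genes were nearest to basophil (Clec10a), megakaryocyte (Clec4e), eosinophil (Clec4b2) and stromal (Klra2) markers, the last at a distance of 0.91 SD, against 0.11 SD for the closest match, Klra8. Klrb1f (0.64 SD, with plasmacytoid dendritic cell markers at 0.65) and Clec4b2 (0.62 SD) were also far from their lists. A second list was nearly as near for Clec12a (monocyte and macrophage, 0.44 against 0.43), Klrc2 (T cell, 0.26 against 0.25) and Clec4e (basophil, 0.365 against 0.357). None of the 28 was nearest to the mast cell markers. The basophil and megakaryocyte averages were themselves high on the 8 arrays with high mast cell markers. Basophil markers (6 genes) averaged 9.92 to 11.99 on these arrays and 6.80 to 6.95 on the other 4. Cd200r3 is on both the basophil and the mast cell list, so these lists are not independent. Megakaryocyte markers (6 genes) averaged 9.1 to 11.1 and 7.8 to 8.0. NK cell markers came second for 8 genes. The mean of this list (12 genes) was highest for wild type 2-week array 3, at 10.06, and for the ACKR2-/- 2-week arrays, at 9.98, 10.03 and 8.91. For the remaining arrays it lay between 7.12 and 8.17. Ncr1, of the same list, went the other way between wild type 2-week arrays 1 and 3, at 9.06 and 6.41. Eomes, also of this list, read 11.79, 10.97 and 10.40 in wild type and 10.43, 10.32 and 8.83 in ACKR2-/- at 2 weeks. At 10 weeks Eomes read 11.99, 10.97 and 11.33 in wild type and 11.30, 9.80 and 8.905 in ACKR2-/-. Between the genotypes at 2 weeks 11 of the 12 genes had a difference above 0, and Eomes was below (-1.19). Over all named genes outside the set, those nearest to Klrd1 by the mean absolute difference of centred log2 values were Dapl1 (0.34), Ms4a6b (0.34) and Il2rb (0.36), and those nearest to Clec12a were Sgk3 (0.36), Plac8 (0.38) and Plxnc1 (0.41).

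Of the adaptors of these receptors, Tyrobp and Fcer1g were above the 90th percentile of all values (10.9) on every array. Tyrobp (DAP12), which carries the signal of Clec5a, Klra8 and other activating receptors, read between 11.32 and 13.18, and Fcer1g, the Fc receptor gamma chain used by Clec4n and Clec4e, between 11.09 and 12.90. Both rose with time in ACKR2-/-, by 1.02 ± 0.29 and 1.21 ± 0.29 (limma adjusted p = 0.0390 and 0.0210), opposite to most of the receptors. Of 30 measured adaptor and signalling genes 3 rose and 5 fell, among these Pik3ap1, an adaptor of PI3 kinase (-2.66 ± 0.51), and the exchange factor Vav3 (-2.58 ± 0.47). The adaptor Hcst (DAP10), the partner of Klrk1, read lower, between 8.40 and 10.08, and neither it nor Card9, which carries Dectin signals, passed. Of 14 measured ligands 2 fell, H60b, a ligand of Klrk1 (-3.10 ± 0.65), and Tap1, of the peptide transporter that loads MHC class I (-1.84 ± 0.37). Among 37 C-type lectin genes outside the symbol rule 8 fell and 2 rose. The falls included Fcer2a, the low-affinity IgE receptor of B cells (-4.89 ± 0.97), Mrc1, the macrophage mannose receptor (-3.41 ± 0.89) and Cd209a, a lectin of dendritic cells (-3.35 ± 0.68). Cd93 rose by 5.00 ± 1.20 and followed the mast cell markers, at 13.00 to 13.22 on the 8 arrays high in mast cell markers and 7.70, 7.38, 7.51 and 9.44 on the other 4. All genes of this contrast were called at 16.8%, and the 2 of 14 ligands lie near that share. In the other 4 contrasts none of these 3 lists had a gene past the threshold, and the lists' medians were between -0.14 and 0.08.

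The remaining Clec genes had ranges of 0.46 to 1.35 over the 12 arrays. Clec16a read 10.01, 9.84 and 9.68 in wild type and 9.61, 9.57 and 9.79 in ACKR2-/- at 2 weeks, and 9.86, 9.75 and 9.65 against 9.89, 10.33 and 10.33 at 10 weeks, a rise in ACKR2-/- of 0.53 ± 0.14 (limma adjusted p = 0.0315). Its highest values were on the 2 arrays with the lowest averages of macrophage and neutrophil markers. Clec11a, a secreted growth factor of bone marrow stroma, lay between 7.74 and 8.70 on the 8 arrays high in mast cell markers and between 7.36 and 7.52 on the other 4. Clec3b (tetranectin) lay between 6.13 and 6.69 and between 5.89 and 5.98 on the same arrays. Both were chosen after their values were seen, and neither passed in any contrast with all arrays. Clec3a, Clec3b, Clec14a and Clec18a had ranges of 0.46 to 0.80.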

How the data were processed

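Expression was measured on 12 single-colour arrays. The deposited table holds log2 values of 35399 probe sets, and the submitters' processing notes name RMA and Partek 6.5 as the authors' tools. RMA corrects background, equalises array distributions and summarises probes. The genome build is not given in the sources used here. Medians of the arrays lay between 7.76 and 7.90, and the number of arrays limits the precision. A platform annotation gave 21789 probe sets 1 symbol and 1621 several. Where a gene had several probe sets (Clec4g among the genes described), the highest mean over 12 arrays was kept.

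With a mean for each group, all 19938 genes were fitted in limma 3.58.1 in R 4.3.3 (8 residual and 2.39 prior degrees of freedom), for 5 contrasts, with Benjamini-Hochberg adjustment over all genes and a threshold of 0.05. The members and lists were chosen with earlier results of these data known. Genes given by value are those called in a contrast (at most 8 per direction), the 25 with the largest range of at least 2, and the highest mean of each family. Up to 4 genes of other lists, or all that were called, are named. Klrb1b, Klra3, Clec4d, Clec4b1, Clec4b2, Clec11a and Clec3b were added after their values were seen. So were the single markers Mcpt4, Mcpt8, Eomes, Ncr1, Xcr1, Cx3cr1 and Ccr2. Alternatives were the mean of all probe sets, fitting only the groups compared, array weights, a replicate block, a low-level filter, median centring and leaving out each array.

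Whether replicate numbers pair arrays was checked from correlations of deviations from group means over genes. All 3 same-numbered pairs exceeded 0.1 only between wild type at 2 and 10 weeks (0.166 to 0.359), where a replicate block in the wild type arrays also called 0 genes.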

Additional observations from a re-analysis of the deposited data

How the results depend on the processing

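The 4 contrasts without calls kept 0 of the 56 genes called when probe sets were averaged, only compared groups were fitted (not applicable to the interaction), arrays were median-centred or low genes were left out. Array weights did not converge, with wild type 10-week array 2 near a weight of 0 (1.40e-06), and gave 41 of the 56 and 9197 of all genes at 2 weeks, 38 and 9550 with time in ACKR2-/- and 24 and 4136 for the interaction. Counts without single arrays ranged from 0 to 29 of the 56 (0 to 4738 of all genes) at 2 weeks, 0 to 2 (0 to 129) at 10 weeks, 0 to 29 (0 to 4994) with time in ACKR2-/-, 0 to 21 (0 to 3138) for the interaction and 0 to 0 with time in wild type. Of the 23 genes called with time in ACKR2-/-, 15 stayed called without ACKR2-/- 10-week array 1, 8 without 2-week array 2, 9 without 2-week array 1 and 0 without 10-week array 2 or 3. The filter at the 40th percentile of mean level kept 14 of the 56 genes, and 7 were called, the same 7 of the 23 that lay above it, so fewer genes tested accounts for that count. The replicate block called 17 of the 56, 15 of them among the 23, and 2897 of all genes with time in ACKR2-/-, and 0 in the other contrasts; same-numbered arrays of this contrast had correlations between -0.026 and 0.062, so there the numbers do not pair arrays.

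Reversed signs concerned genes that were not called. Without single arrays Klrc1 with time in wild type ranged from -2.09 to 0.10 and Klri1 from -1.90 to 0.0037, the higher values without wild type 2-week array 3. Leaving out all 4 arrays low in mast cell markers was an alternative added after seeing the data. It gave the same 2 differences by construction, because they use wild type arrays only. That alternative called 0 genes at 10 weeks and with time in wild type. Clec5a with time in ACKR2-/- ranged from -0.13 (without ACKR2-/- 10-week array 1) to 0.56. The cause was not tested. No scanner files were used, so signal over background, slides and scan batches were not examined.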

Other observations

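The 4 probe sets that carry several Ly49 symbols were left out of the results and are given here as values. The probe set shared by Klra9, Klra5 and Klra3 had its highest values, 7.73, 7.67, 7.77 and 6.70, on wild type 2-week array 3 and on ACKR2-/- 2-week arrays 1 to 3, and read between 4.46 and 5.16 on the other 8 arrays. The probe set of 5 symbols from Klra14-ps to Klra10 read 7.19, 7.48, 7.72 and 6.98 on the same 4 arrays and between 4.17 and 4.62 on the others. The probe set of 7 symbols ranged over 2.78 and that of 6 symbols, with Klra4, Klra7 and Klra1, over 1.36.

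Among the ligands, Cdh1 (E-cadherin, bound by Klrg1) had a pattern like that of Clec4e, Clec5a and Clec10a, and unlike that of Clec12a and Clec4n. It read 9.70, 9.11 and 7.70 in wild type and 7.77, 7.83 and 7.50 in ACKR2-/- at 2 weeks, and 9.88, 9.36 and 9.56 against 9.05, 7.69 and 6.88 at 10 weeks. It was chosen after its values were seen and passed in no contrast.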
